A study of Mus musculus with 9 samples.

Results

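Potassium channels are membrane proteins that let potassium leave or enter the cell and so set the resting voltage, the excitability and the fluid transport of nearly every cell type. Voltage-gated channels open on depolarization, calcium-activated channels open when cytosolic calcium rises, inward rectifiers and two-pore channels hold the resting potential, and accessory subunits tune the channels they bind. In the iris, muscarinic and adrenergic nerves act on sphincter and dilator muscle through the membrane potential, pigment epithelia exchange potassium with the aqueous humor, and resident and infiltrating leukocytes carry channels of their own.

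The genes described here are all those whose symbol begins with Kcn, then 1 or more lower-case letters and a digit, which is how mouse potassium channel subunits are named. There were 90 of them among the 18349 genes counted in each iris library. By symbol they fell into 39 voltage-gated pore subunits, 14 inward rectifiers, 12 calcium-activated or related subunits, 13 two-pore subunits and 12 accessory subunits.

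RNA was measured in mouse iris 4 weeks after a corneal burn, in 3 groups of 3 libraries, each library made from 3 pooled irises. All mice were C57BL/6J animals with both Vegfr3 alleles floxed (Vegfr3fl/fl, written WT in the labels), treated at 6 weeks of age and dissected at 10 weeks. The sham group received PBS on the cornea, the injured group received 0.5 µl of 1 M sodium hydroxide for 60 s, and the libraries labelled VEGFR3iLECko came from injured Vegfr3fl/fl;Prox1CreERT2 mice, in which Cre is driven by the Prox1 promoter, active in lymphatic endothelium but not in that cell type alone. Tamoxifen at 80 mg/kg was injected on days 13 to 17 after the injury, and the study's methods say that littermate floxed controls received it too. No sham group carried the Cre, both sexes were used, and in replicates 2 and 3 of the VEGFR3iLECko group the genotype label names another receptor number while the titles and descriptions give the knockout. What the pools shared beyond their group was not stated, so p-values measure the spread between these libraries.

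Library totals ran from 16617199 to 18306363 counts, and levels are given as CPM, counts relative to the library's total after TMM scaling. Flt4, which encodes VEGFR3, stood at 15.6, 13.4 and 14.9 CPM in sham, 16.8, 20.7 and 23.0 CPM in injured and 27.9, 21.0 and 27.4 CPM in the libraries labelled VEGFR3iLECko, so it was not lower in the knockout label. These counts cover the whole gene in bulk tissue. By LYVE1 staining of whole irises, the study reports that lymphatic growth after injury was blocked in VEGFR3iLECko mice. The iris markers Pax6 and Foxc1 and the smooth muscle and pigment genes Acta2, Myh11, Tyrp1 and Pmel were present in every library, and the ciliary body genes Atp6v1c2 and Cacna1e summed to 1.44 to 3.64 CPM. Injured replicate 1 stood apart in 1 of the 4 corneal epithelium markers: Aldh3a1 was at 117 CPM there and at 1.69 to 10.2 CPM in the other libraries, while Krt12, Krt5 and Krt14 were at 0.182, 0.182 and 0 CPM in it. It also stood apart over all genes. Its counts differed from Injured replicates 2 and 3 by a chi-square per degree of freedom of 76.2 and 67.4. Between those replicates the value was 26.7, and within the other groups it was 5.13 to 27.9. Photoreceptor markers summed to 34.7 to 1012 CPM with no order by group, a spread that touches channel genes below.

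Of the 90 genes, 66 had enough counts to be tested, of 15010 genes tested in all. The other 24, among them the lymphocyte channel Kcna3 with 0 to 5 counts in a library, never reached more than 29 counts. A gene was called when its adjusted p (edgeR quasi-likelihood, Benjamini-Hochberg over all tested genes) was under 0.05 and its change exceeded 1.5-fold. In bulk tissue, fewer cells of a type and less RNA per cell cannot be told apart, in any of the results that follow.

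The stretches just before the start sites of 4 genes are shown because they belong to the largest fall and the largest rise among the inward rectifiers and to 2 further genes that rose and hold an E-box. They are 150 bases each, 5′ to 3′ on the gene's own strand, from RefSeq on GRCm38.p6, and capitals mark a searched motif. The windows are chr1:87394730-87394879 on the minus strand for Kcnj13, chr16:95257408-95257557 on the plus strand for Kcnj15, chr11:111066014-111066163 on the plus strand for Kcnj2 and chr7:24370113-24370262 on the plus strand for Kcnn4.
Kcnj13: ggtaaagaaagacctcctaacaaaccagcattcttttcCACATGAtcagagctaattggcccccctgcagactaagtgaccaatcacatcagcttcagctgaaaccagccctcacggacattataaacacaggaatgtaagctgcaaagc
Kcnj15: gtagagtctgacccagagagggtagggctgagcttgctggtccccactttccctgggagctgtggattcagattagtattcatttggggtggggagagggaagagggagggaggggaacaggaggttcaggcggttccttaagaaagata
Kcnj2: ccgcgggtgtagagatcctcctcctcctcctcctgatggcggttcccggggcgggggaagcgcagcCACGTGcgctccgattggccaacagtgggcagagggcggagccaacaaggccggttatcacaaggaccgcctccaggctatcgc
Kcnn4: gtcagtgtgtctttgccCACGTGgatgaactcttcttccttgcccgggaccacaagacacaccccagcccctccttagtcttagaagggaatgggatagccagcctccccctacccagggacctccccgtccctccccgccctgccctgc
The capitals in Kcnj13 are the M-box core TCATGTG, the kind of site that MITF binds in pigment cell genes, read on the opposite strand 112 bases before the start. The capitals in Kcnj2 and Kcnn4 are the palindromic E-box CACGTG, 84 and 133 bases before the start, and the Kcnj15 window held none of the 4 motifs searched.

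Over the 250 bases before each start, both strands were searched for the M-box core and the E-box just named, for the AP-1 element written TGANTCA and for the PU.1 core of myeloid genes, written GAGGAAG. None of these motifs contains another, and they were chosen after the changes were known. RefSeq held 90 windows for 65 of the 90 genes, 46 of them tested. The M-box core was in 3.25% of all 32851 windows, in 0 of 18 windows of genes that rose and in 1 of 28 windows of genes that fell, that of Kcnj13. AP-1 elements were in 6.75% of all windows, in 2 of 18 windows of genes that rose (Kcne3 and Kcnk2) and in 1 of 28 windows of genes that fell. The E-box was in 6.02% of all windows and in 2 of 18 and 2 of 28, and the PU.1 core in 10.6% of all and in 2 of 18 and 3 of 28. A match describes letters in a window and no binding was measured.

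The first comparison asked what alkali injury did to channel transcripts in irises of floxed mice. Summed over all 90 genes, potassium channel transcripts stood at 1151, 1104 and 1159 CPM in sham, at 586, 612 and 631 CPM in injured and at 745, 659 and 644 CPM in the VEGFR3iLECko libraries. The sham range lay above both injured ranges. Of the 66 tested genes 29 fell, 18 rose and 19 were not called, which is 43.9% lower and 27.3% higher, against 17.5% lower and 22.1% higher (39.7% either way) among all tested genes. The median log2 fold change was -0.63 over the channel genes and 0.01 over all tested genes.

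Some of those genes passed the filter only through the group in which they were high. Among the 44 channel genes that cleared the count filter in every library, 21 fell and 11 rose (47.7% and 25.0%), against 17.2% and 19.9% of the 13329 genes of any kind that did so. By class, over all 66 tested genes, 16 of 29 voltage-gated genes fell and 7 rose, and 4 of 11 inward rectifiers fell and 4 rose. Of 10 calcium-activated genes 3 fell and 2 rose, and of 6 two-pore genes 3 fell and 3 rose. Of 10 accessory genes 3 fell and 2 rose. Among all 15010 tested genes 17.5% fell and 22.1% rose, while the calcium-activated and accessory classes each had 30% lower and 20% higher. The class medians were -1.19, 0.20, -0.12, 0.47 and -0.34 on the log2 scale in that order. Scaling by library size alone moved the median of all genes to -0.16 and gave 30 lower and 15 higher, with Kcnj8, Kcnj10 and Kcnq1 no longer called.

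**Figure D1:**
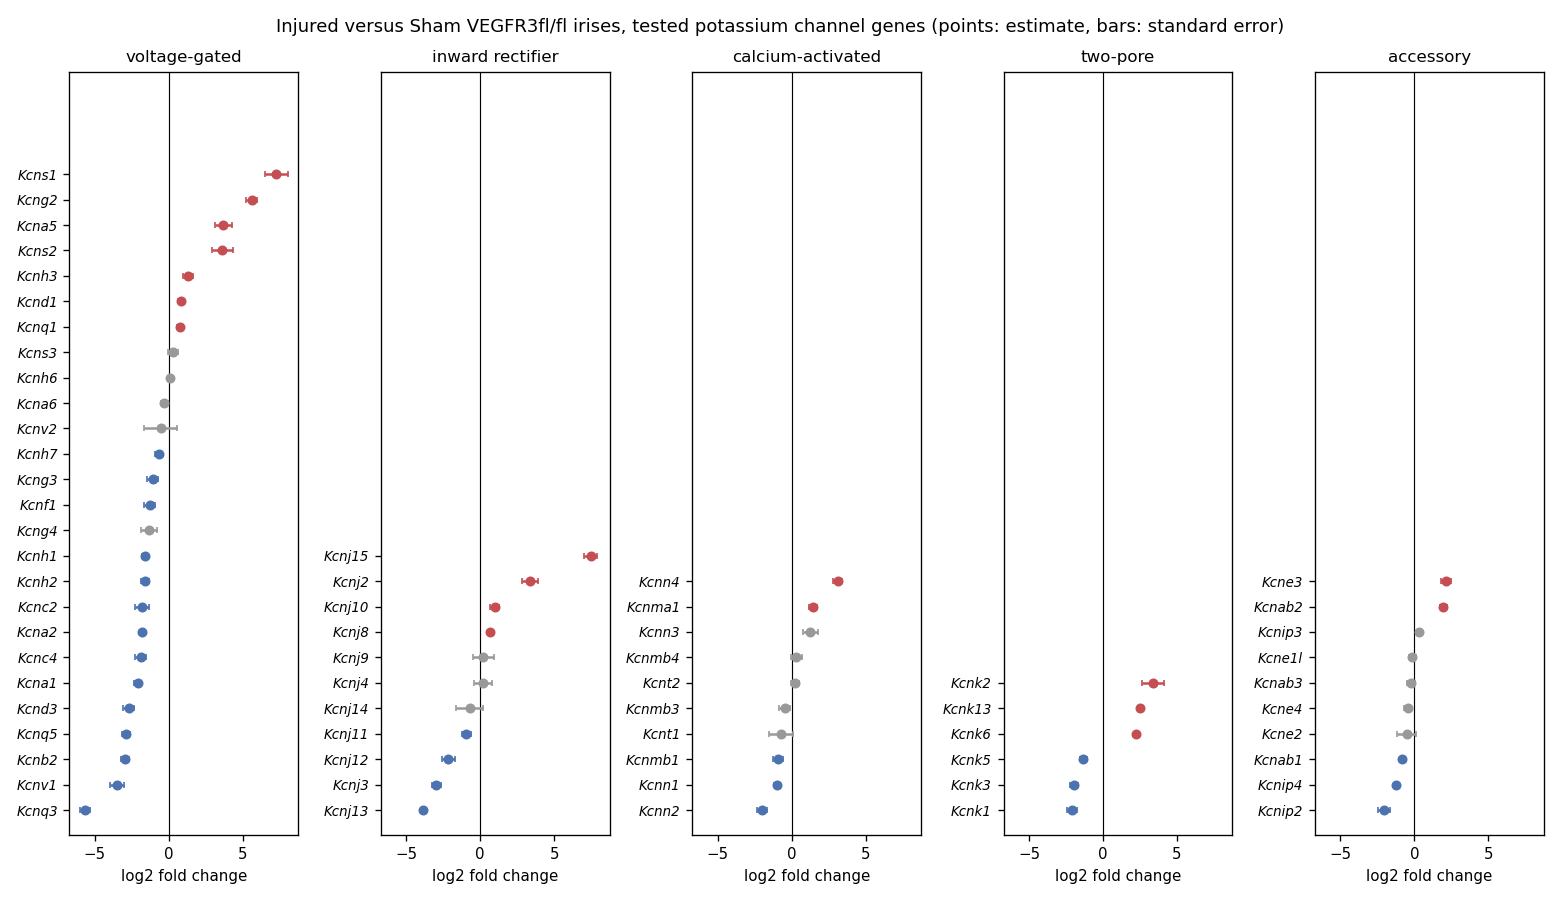
Log2 fold change of injured over sham irises (x axis) for 63 of the 66 tested potassium channel genes, 1 panel per class, with points for the estimate and bars for the standard error. Red points are the 18 genes called higher, blue points the 27 called lower and gray points the 18 not called; the voltage-gated panel holds 14 of the blue points.

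The cell types of the iris moved in the same comparison, and their markers are given here once beside the channel genes. Pigment cell markers summed to 27794 to 29755 CPM in sham and 3413 to 5858 CPM in injured irises, with 8 of 8 lower. Smooth muscle markers summed to 8116 to 10458 CPM and 1693 to 3528 CPM, with 8 of 10 lower. Macrophage markers went the other way, from 408 to 418 CPM in sham to 3249 to 3607 CPM, with 9 of 10 higher, and 7 of 7 T cell markers rose from a sum of 5.24 to 5.26 CPM to one of 41.7 to 57.5 CPM. Neutrophil markers summed to 3.90 to 5.41 CPM in sham and 152 to 489 CPM in injured irises, with 3 of 3 tested higher, and B cell markers to 1.22 to 1.24 CPM and 4.31 to 5.46 CPM, with 2 of 2 tested higher. Blood endothelial markers rose in 5 of 8 cases (495 to 532 CPM against 1205 to 1295 CPM), pericyte markers in 3 of 6, neuron markers in 5 of 8 with 1 lower, and Schwann cell markers in 1 of 8 with 4 lower. The part of these shifts in the changes of single channel genes was not tested.

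Voltage-gated channels held the most genes and the most falls. Kcnq3 and Kcnq5, which carry the slow KCNQ (M-type) current of neurons, were among them. Kcnq3 measured 29.1, 30.9 and 26.3 CPM in sham, 0.789, 0.644 and 0.23 CPM in injured and 0.409, 0.227 and 0.518 CPM in VEGFR3iLECko libraries, and fell by 5.69 on the log2 scale (SE 0.33, adjusted p = 1.1e-06), the steepest fall among the 66 genes. Kcnq5 measured 32.2, 20.5 and 27.8 CPM in sham, 2.97, 3.22 and 4.42 CPM in injured and 7.65, 9.85 and 5.53 CPM in VEGFR3iLECko libraries, and fell by 2.92 on the log2 scale (SE 0.26, adjusted p = 1.65e-05). Every injured library lay under every sham library for these genes. Kcnq1, the epithelial and cardiac member of the family, went the other way, with 4.71, 3.9 and 4.34 CPM in sham and 5.16, 8.43 and 8.1 CPM in injured (log2 fold change 0.74, SE 0.22, adjusted p = 0.016). Its call was lost without Sham replicate 2, Injured replicate 2 or Injured replicate 3, at adjusted p of 0.0536, 0.053 and 0.0509.

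The Shaker-type genes split. Kcna2 and Kcna1, axonal channels of myelinated nerve, measured 69.4, 75 and 71.9 CPM and 21.3, 23.4 and 22.8 CPM in sham and 21.1, 21.6 and 18.1 CPM and 6.61, 4.62 and 4.54 CPM in injured irises. Both were lower in every injured library, with log2 fold changes of -1.83 (SE 0.12, adjusted p = 2.09e-06) and -2.09 (SE 0.24, adjusted p = 7.77e-05). Schwann cell markers, the glia of the same nerves, summed to 573 to 667 CPM in sham and 421 to 440 CPM in injured irises. Of these 8 markers 4 were lower and 1 was higher. Neuron markers summed to 53.0 to 71.2 CPM in sham and 138 to 210 CPM in injured irises. Within this sum, Nefm alone measured 2.16, 1.19 and 2.76 CPM in sham and 96.3, 36.9 and 166 CPM in injured libraries. Of the 8 neuron markers 5 were higher and 1, Rbfox3, was lower (-1.88, adjusted p = 0.00108). Mean Syt1 went from 28.0 to 7.40 CPM without a call (adjusted p = 0.0836). Kcna5, a delayed rectifier of vascular smooth muscle and macrophages, measured 1.66, 0.508 and 1.13 CPM in sham, 5.4, 23.5 and 13.8 CPM in injured and 19.7, 23.1 and 30.7 CPM in VEGFR3iLECko libraries. It rose by 3.69 on the log2 scale (SE 0.57, adjusted p = 0.000462), with Injured replicate 1 the lowest of its group. Kcna6 was not called at -0.30 (adjusted p = 0.288), and without Injured replicate 1 it was called lower at -0.64 (adjusted p = 0.00521).

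Among the rapidly inactivating A-type genes, Kcnd3 measured 10.6, 11.2 and 12.8 CPM in sham, 0.728, 2.81 and 1.67 CPM in injured and 2.22, 2.72 and 3.51 CPM in VEGFR3iLECko libraries and fell by 2.72 on the log2 scale (SE 0.39, adjusted p = 0.000294). Kcnd1 rose from 4.15, 6.27 and 5.58 CPM to 9.29, 10.3 and 8.9 CPM, a log2 fold change of 0.83 (SE 0.18, adjusted p = 0.00371), so the pair moved in opposite directions. Of the Shab genes, Kcnb2 fell by 2.96 on the log2 scale (adjusted p = 2.65e-05) from 7.64, 8.3 and 7.55 CPM to 0.789, 1.29 and 0.919 CPM. Of the fast-deactivating Shaw genes, Kcnc4 was at -1.89 (adjusted p = 0.00204) and Kcnc2 at -1.83 (adjusted p = 0.00768, and -2.44 without Injured replicate 2).

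The ether-à-go-go group held 4 called genes, of which Kcnh3 alone rose. Kcnh1 and Kcnh2, the latter the hERG channel that repolarizes heart muscle, had the same log2 fold change of -1.61 (adjusted p = 8.26e-05 and 0.00105), from 30.2, 18.5 and 28.4 CPM and 11.7, 11.6 and 13.7 CPM to 7.65, 9.72 and 7.87 CPM and 4.31, 5.33 and 2.47 CPM. Kcnh7 was at -0.70 (adjusted p = 0.0352), its values are not whole numbers, and it shares up to 696 exon bases with Gca on the opposite strand. That call was lost at adjusted p of 0.0517 to 0.0963 without any 1 of Sham replicates 1 to 3, Injured replicates 1 to 3 or VEGFR3iLECko replicate 3. Kcnh3 rose at 1.29 (SE 0.34, adjusted p = 0.00947) from 0.775, 1.02 and 1.13 CPM to 3.52, 1.64 and 2.01 CPM. Kcnh6 did not pass the test at 0.08 (adjusted p = 0.637), a value that turned to -0.09 under scaling by library size alone.

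The electrically silent subunits form no channel alone and modify the Shab channels they assemble with. Kcng2 measured 0.111, 0.0565 and 0.113 CPM in sham, 3.03, 5.5 and 5.97 CPM in injured and 3.74, 3.91 and 4.26 CPM in VEGFR3iLECko libraries. The 3 sham libraries held 5 counts together and the injured ones 248, a ratio of 52.1 with a counting interval (95%, exact) of 22.0 to 162, and the fit gave a log2 fold change of 5.59 (adjusted p = 3.97e-06). Kcns1 had 0, 0 and 1 counts in sham and 82, 42 and 78 counts in injured libraries. Its ratio of summed counts was 212 (counting interval 37.6 to 8417), the injured mean was 23.6 times a floor of 3 counts in each sham library, and the fit gave 7.26 (adjusted p = 5.05e-05). Without Sham replicate 3, the only sham library with a count, the fitted value became 9.11. Kcns2 rose as well, from 0.388, 0 and 0.282 CPM to 3.22, 2.05 and 3.27 CPM with 1.93, 2.15 and 0.748 CPM in VEGFR3iLECko libraries (log2 fold change 3.63, SE 0.71, adjusted p = 0.00181, and 4.27 without Sham replicate 1). The 3 genes were picked among genes without overlap between sham and injured libraries and passed the count filter through the injured groups. Their levels were no higher than 5.97 CPM.

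Other silent subunits fell. Kcnv1 measured 2.38, 2.71 and 1.86 CPM in sham and 0.364, 0.0585 and 0.172 CPM in injured libraries, with 0.175, 0.17 and 0.173 CPM in VEGFR3iLECko libraries (log2 fold change -3.51, SE 0.47, adjusted p = 0.000183, and -4.24 without Injured replicate 1). Kcnf1 was at -1.30 (adjusted p = 0.0135), called no longer without Sham replicate 1 (adjusted p = 0.063). Kcng3 was at -1.11 (adjusted p = 0.0324), and its call was lost without Sham replicate 3, Injured replicate 1 or Injured replicate 2 (adjusted p = 0.137, 0.0876 and 0.0658). Kcng4 was not called at -1.34 (adjusted p = 0.0616) but was called lower at adjusted p of 0.0292 without Injured replicate 1, 0.0343 without VEGFR3iLECko replicate 1 and 0.0486 without VEGFR3iLECko replicate 3. DESeq2, limma-voom, library-size scaling and the fit of only the libraries compared called it lower too (adjusted p = 0.0308, 0.03, 0.0336 and 0.0444). Kcns3 did not pass the test at 0.29 (adjusted p = 0.476).

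**Figure D2:**
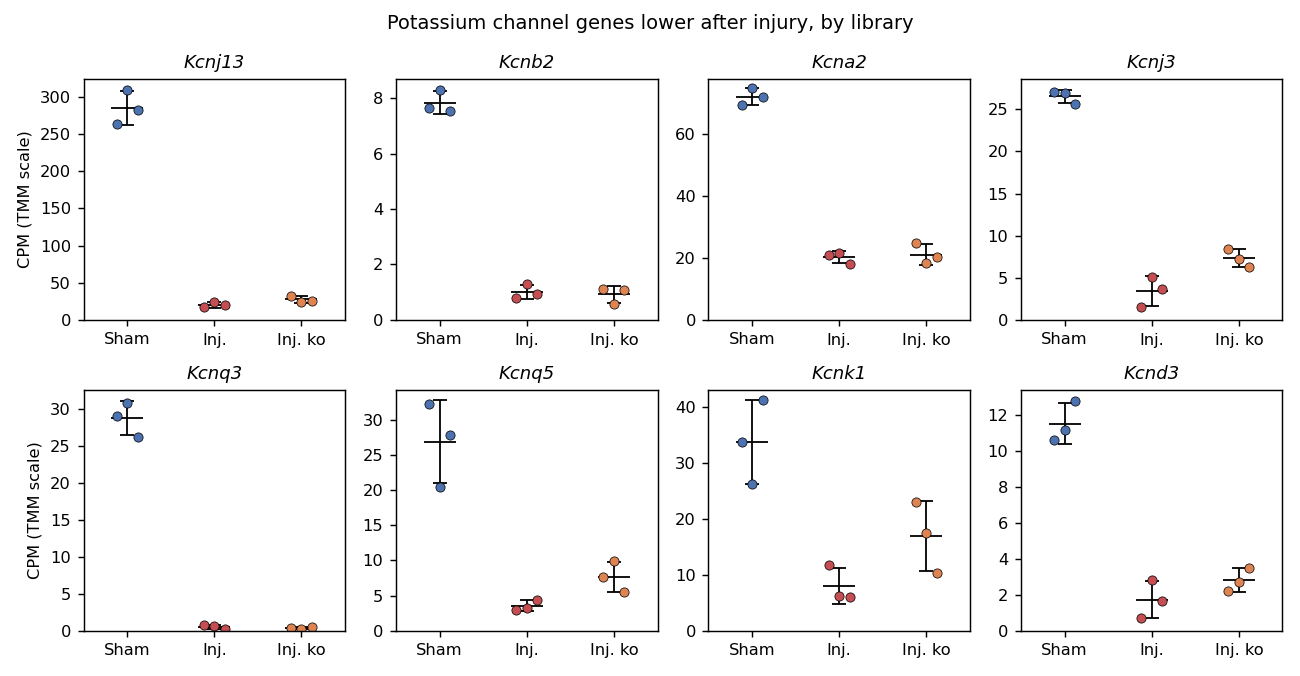
CPM on the TMM scale (y axis, from 0, a separate scale in each panel) of 8 potassium channel genes that fell after injury, by group (Sham, injured VEGFR3fl/fl and injured VEGFR3iLECko, n = 3 libraries each). Points are libraries, wide bars the mean and error bars the SD. Every sham point lies above every point of the injured VEGFR3fl/fl group, a condition for picking Kcnj3 and Kcnq3 for full values. Kcnb2, Kcna2 and Kcnd3 were picked outside the rule for full values.

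Inward rectifiers included genes that rose steeply and genes that fell steeply. Kcnj13 encodes Kir7.1, the apical potassium channel of pigment epithelia, and had the highest length-scaled level of all channel genes in sham irises. Its approximate TPM (counts divided by transcript length, then scaled to the same total in every library) was 647 ± 25.6 (SD) in sham, 37.1 ± 8.49 in injured and 56.2 ± 7.03 in VEGFR3iLECko irises (n = 3 each). The libraries held 264, 309.5 and 282 CPM in sham, 16.9, 23.7 and 19.4 CPM in injured and 32.4, 24.7 and 25.4 CPM in VEGFR3iLECko irises, and the sham range did not meet either injured range. Kcnj13 fell by 3.84 on the log2 scale (SE 0.15, adjusted p = 1.7e-07), or 14.3-fold. Kcnj13 lies at 87386363 to 87394729 on the minus strand of chromosome 1 (GENCODE M21, GRCm38) inside the region of Gigyf2, with up to 355 exon bases shared with that gene on the opposite strand. Reads of the pair cannot be told apart if counting ignored strand, which is not stated. Pigment cell markers fell beside it, and retinal pigment epithelium markers, which posterior iris epithelium can share, summed to 334 to 390 CPM in sham and 83.8 to 211 CPM in injured irises. Of the 5 markers 3 were lower, Best1 was higher (2.30, adjusted p = 0.00126) and Ttr was not called.

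Kcnj15, which encodes Kir4.2, had the largest fitted rise of the 66 genes with all libraries in the fit. Without Sham replicate 3 the fitted value of Kcns1 was larger, at 9.11. Kcnj15 had 9, 6 and 11 counts in sham libraries, or 0.498, 0.339 and 0.619 CPM. It measured 99, 46.5 and 115 CPM in injured and 127, 87.4 and 111 CPM in VEGFR3iLECko libraries. Every injured library exceeded every sham library by a wide margin, though freedom from overlap was a condition for picking the gene. The log2 fold change was 7.46 (SE 0.46, adjusted p = 1.66e-06), or 176-fold, and in length-scaled terms the approximate TPM was 0.247 ± 0.0765 (SD) in sham, 35.5 ± 14.9 in injured and 49.3 ± 7.61 in VEGFR3iLECko irises (n = 3 each). Exons of Kcnj15 share up to 333 bases with an antisense gene, Gm49643.

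Kcnj2 encodes Kir2.1, the strong rectifier of muscle, endothelium and macrophages. It measured 1.55, 0.96 and 0.732 CPM in sham, 3.58, 15.9 and 14 CPM in injured and 24.9, 21.4 and 17.5 CPM in VEGFR3iLECko libraries. The rise was 3.36 on the log2 scale (SE 0.54, adjusted p = 0.00059), and Injured replicate 1 was the lowest injured library, yet above all of sham. Kcnj12, its close relative Kir2.2, moved the other way, with 2.94, 3.5 and 2.31 CPM in sham, 0.668, 0.82 and 0.459 CPM in injured and 1.34, 0.453 and 0.46 CPM in VEGFR3iLECko libraries (log2 fold change -2.16, SE 0.45, adjusted p = 0.00265). Kcnj3 encodes a G protein-gated rectifier that opens on muscarinic signals, and measured 27, 26.9 and 25.6 CPM in sham, 1.52, 5.03 and 3.62 CPM in injured and 8.41, 7.25 and 6.33 CPM in VEGFR3iLECko libraries. It fell by 2.96 on the log2 scale (SE 0.33, adjusted p = 5.74e-05). Its partners differed: Kcnj9 was at 0.20 (adjusted p = 0.824), turning to -0.20 without Sham replicate 3 and -0.66 without Injured replicate 2, and Kcnj5 and Kcnj6 had too few counts to test.

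The ATP-sensitive channels are built from Kir6 pores and sulfonylurea receptors. Kcnj8 (Kir6.1), a marker of pericytes, measured 14.6, 18.5 and 17.6 CPM in sham, 26.8, 24.4 and 29.6 CPM in injured and 25.1, 24.5 and 19.5 CPM in VEGFR3iLECko libraries, a log2 fold change of 0.67 (SE 0.13, adjusted p = 0.00179) that fell under 1.5-fold, to 0.58, without Sham replicate 1. Its receptor partner Abcc9 rose with it, by 1.72 on the log2 scale (adjusted p = 4.94e-05), from a mean of 18.8 ± 1.84 CPM (SD, n = 3) to 61.9 ± 17 CPM, while pericyte markers summed to 653 to 729 CPM in sham and 1042 to 1793 CPM in injured irises. Kcnj11 (Kir6.2) was at -0.93 (adjusted p = 0.0228), and its call was lost at adjusted p of 0.0508 to 0.0543 without any 1 of Sham replicates 1 to 3 or Injured replicate 3. Kcnj11's usual partner Abcc8 did not pass the test at 0.19 (adjusted p = 0.786).

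Kcnj10 (Kir4.1), the potassium buffer of glia, measured 6.87, 6.21 and 5.24 CPM in sham, 8.86, 17.4 and 10 CPM in injured and 14.7, 7.42 and 14 CPM in VEGFR3iLECko libraries. The log2 fold change was 0.99 (SE 0.32, adjusted p = 0.0232), with adjusted p of 0.0572 without Sham replicate 2, 0.0786 without Sham replicate 3 and 0.0863 without Injured replicate 2. Kcnj4 was not called at 0.20 (adjusted p = 0.79), and its sign turned without Sham replicate 1 (-0.07) or Injured replicate 2 (-0.65).

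Of the 10 tested calcium-activated genes 3 fell, 2 rose and 5 were not called, beside 39.7% of all tested genes called either way. Kcnmb4, an auxiliary subunit best known from brain, had the highest length-scaled level of the class in sham, an approximate TPM of 25.1 ± 1.44 (SD) in sham, 26.3 ± 15.1 in injured and 38.2 ± 2.31 in VEGFR3iLECko irises (n = 3 each). It measured 12.8, 15.5 and 14.1 CPM in sham, 6.98, 25 and 21.3 CPM in injured and 26.1, 23.1 and 22.4 CPM in VEGFR3iLECko libraries and was not called (0.33, adjusted p = 0.458). Injured replicate 1 lay under sham and the other injured libraries above it, and without that library the gene was called higher at 0.71 (adjusted p = 0.000954). Kcnma1, the pore of the large-conductance BK channel, rose from 7.92, 5.82 and 6.48 CPM to 26.8, 13 and 15.9 CPM, with 18.6, 14.4 and 17.4 CPM in VEGFR3iLECko libraries (log2 fold change 1.46, SE 0.26, adjusted p = 0.00107). Kcnmb1, the subunit that gives BK its calcium sensitivity in smooth muscle, measured 7.53, 9.49 and 7.49 CPM in sham, 2.91, 6.73 and 3.22 CPM in injured and 3.86, 5.15 and 7.02 CPM in VEGFR3iLECko libraries (log2 fold change -0.93, SE 0.34, adjusted p = 0.0391). Its call was lost at adjusted p of 0.0554 to 0.116 without any 1 of Sham replicates 1 to 3, Injured replicates 1 and 3 or VEGFR3iLECko replicate 2. The pore and this subunit thus went in opposite directions in the full set of libraries.

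The small and intermediate conductance genes divided in the same way. Kcnn4, the channel of activated T cells, macrophages and red cells, measured 0.72, 0.847 and 0.563 CPM in sham, 6.74, 6.91 and 5 CPM in injured and 4.32, 2.61 and 2.42 CPM in VEGFR3iLECko libraries. It rose by 3.12 on the log2 scale (SE 0.31, adjusted p = 2.87e-05), and no injured library overlapped sham. Kcnn2 fell from 5.43, 5.82 and 5.07 CPM to 0.85, 1.76 and 1.49 CPM, with 1.17, 0.963 and 2.19 CPM in VEGFR3iLECko libraries (log2 fold change -1.99, SE 0.35, adjusted p = 0.00108). Kcnn1 fell from 5.65, 6.38 and 6.36 CPM to 3.22, 2.81 and 3.39 CPM, with 3.27, 3.57 and 2.24 CPM in VEGFR3iLECko libraries (log2 fold change -0.96, SE 0.21, adjusted p = 0.00315). These genes are the neuronal members of the group. Kcnn3, the endothelial small-conductance channel, measured 2.16, 1.58 and 2.25 CPM in sham, 2.97, 2.58 and 8.84 CPM in injured and 4.97, 9.29 and 4.89 CPM in VEGFR3iLECko libraries and was not called (1.26, adjusted p = 0.0503). It was called higher without Injured replicate 1 (1.51, adjusted p = 0.0277), Injured replicate 2 (1.57, adjusted p = 0.0213) or VEGFR3iLECko replicate 2 (1.26, adjusted p = 0.0479). With all libraries, DESeq2 called it higher too (1.27, DESeq2 adjusted p = 0.0228). The sodium-activated Kcnt1 and Kcnt2 did not pass the test at -0.73 and 0.24 (adjusted p = 0.451 and 0.476).

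All 6 tested two-pore genes were called, 3 in each direction, beside 39.7% of all tested genes called either way. Kcnk1 (TWIK-1) had the highest length-scaled level of the class in sham, an approximate TPM of 43.8 ± 10.6 (SD) in sham, 8.22 ± 2.62 in injured and 19.7 ± 7.04 in VEGFR3iLECko irises (n = 3 each). It measured 33.8, 26.3 and 41.3 CPM in sham, 11.8, 6.15 and 6.09 CPM in injured and 23, 17.5 and 10.4 CPM in VEGFR3iLECko libraries and fell by 2.08 on the log2 scale (SE 0.34, adjusted p = 0.000682). The acid-sensitive Kcnk3 (TASK-1) and Kcnk5 (TASK-2) fell too. Kcnk3 measured 8.14, 7.96 and 8.67 CPM, 2.43, 2.52 and 1.38 CPM and 2.22, 1.36 and 1.5 CPM in sham, injured and VEGFR3iLECko libraries (-1.97, SE 0.27, adjusted p = 0.000226). Kcnk5 measured 13.4, 14.1 and 15 CPM, 5.28, 5.85 and 5.8 CPM and 10.1, 5.83 and 5.12 CPM in that order (-1.33, SE 0.23, adjusted p = 0.001). Sham and injured libraries did not overlap for either gene, which was a condition for picking them.

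The two-pore genes that rose include both that are known from myeloid cells. Kcnk6 (TWIK-2), the potassium efflux channel tied to the NLRP3 inflammasome in macrophages, measured 2.66, 3.5 and 3.89 CPM in sham, 17.2, 15.7 and 15.6 CPM in injured and 11.6, 11.8 and 11.1 CPM in VEGFR3iLECko libraries (2.27, SE 0.15, adjusted p = 2.49e-06). Kcnk13 (THIK-1), the tonic channel of microglia, measured 2.33, 1.53 and 1.75 CPM in sham, 10.7, 9.83 and 12.1 CPM in injured and 7.24, 7.36 and 8.69 CPM in VEGFR3iLECko libraries (2.54, SE 0.19, adjusted p = 5.87e-06). For both, the VEGFR3iLECko libraries lay between sham and injured without touching either, but neither was called between the injured groups (adjusted p = 0.0903 and 0.148). The macrophage marker sum was 408 to 418, 2016 to 2324 and 3249 to 3607 CPM in sham, VEGFR3iLECko and injured irises. Of the other genes named for macrophages, Kcnn4 lay between too. Mean Kcna5 and Kcnj2 were higher in VEGFR3iLECko than in injured libraries (24.5 against 14.3 CPM and 21.3 against 11.2 CPM), also without a call. The part of macrophage number in these values was not tested. Kcnk2 (TREK-1), a mechanosensitive channel, measured 0.222, 0.734 and 0.732 CPM in sham, 12.2, 1.99 and 3.5 CPM in injured and 2.45, 2.15 and 1.27 CPM in VEGFR3iLECko libraries. Its log2 fold change of 3.37 (SE 0.73, adjusted p = 0.00328) became 2.28 (adjusted p = 0.00421) without Injured replicate 1.

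**Figure D3:**
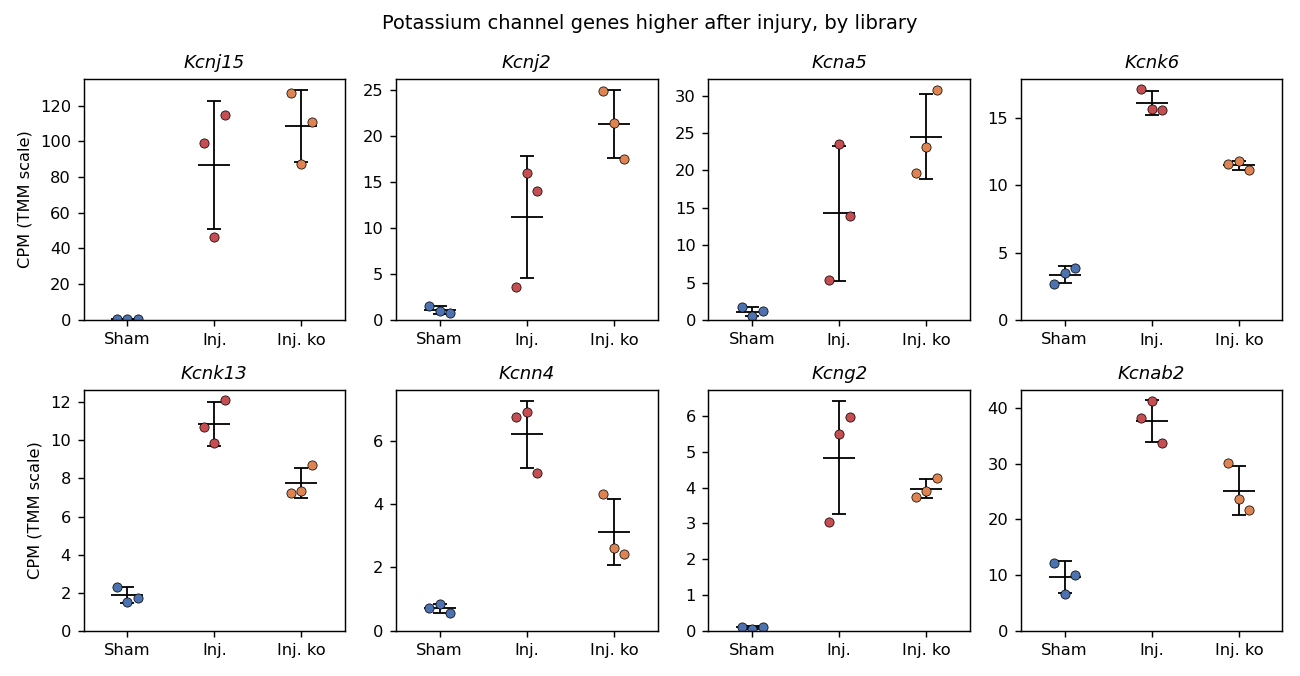
CPM on the TMM scale (y axis, from 0, a separate scale in each panel) of 8 potassium channel genes that rose after injury, by group (Sham, injured VEGFR3fl/fl and injured VEGFR3iLECko, n = 3 libraries each). Points are libraries, wide bars the mean and error bars the SD. Every sham point lies under every injured point, a condition for picking Kcnj15, Kcna5 and Kcng2 for full values. Kcnk6, Kcnk13, Kcnn4 and Kcnab2 lie lower in VEGFR3iLECko than in injured VEGFR3fl/fl libraries, and Kcnj2 lies higher. None of the genes drawn was called between these groups by edgeR, while DESeq2 called Kcnn4 lower (-0.99, DESeq2 adjusted p = 0.0278).

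Among accessory subunits, Kcnip4, a calcium-binding partner of A-type channels, had the highest length-scaled level in sham, an approximate TPM of 38.6 ± 2.5 (SD) in sham, 13.1 ± 1.59 in injured and 16 ± 3.85 in VEGFR3iLECko irises (n = 3 each). It measured 32.9, 31.3 and 31.8 CPM in sham, 13.7, 11.9 and 14.5 CPM in injured and 13.6, 18.2 and 12.3 CPM in VEGFR3iLECko libraries (-1.26, SE 0.14, adjusted p = 7.1e-05) and its counts were not whole numbers as deposited. Kcnip2, which helps Kcnd3 reach the membrane, fell from 1.94, 1.53 and 2.25 CPM to 0.425, 0.702 and 0.23 CPM, with 0.234, 0.283 and 0.173 CPM in VEGFR3iLECko libraries (-2.06, SE 0.40, adjusted p = 0.00183). A further A-type partner outside the symbol rule, Dpp6, fell from a mean of 21.4 ± 1.55 CPM (SD, n = 3) to 1.98 ± 1.95 CPM (-3.43, adjusted p = 0.000519). Kcnip3 (DREAM), also a transcriptional repressor, measured 25.1, 24.3 and 24.2 CPM in sham, 33.5, 24.1 and 35.7 CPM in injured and 21.2, 22.5 and 15.3 CPM in VEGFR3iLECko libraries and was not called after injury (0.34, adjusted p = 0.112).

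The beta subunits of Shaker channels moved apart. Kcnab1 measured 53.2, 44.7 and 50.6 CPM in sham, 25.5, 28 and 31.5 CPM in injured and 27.7, 37.7 and 37.5 CPM in VEGFR3iLECko libraries, and fell by 0.81 on the log2 scale (SE 0.13, adjusted p = 0.000727). Kcnab2 measured 12.2, 6.55 and 9.97 CPM in sham, 38.2, 41.2 and 33.7 CPM in injured and 30, 23.7 and 21.8 CPM in VEGFR3iLECko libraries, a rise of 1.97 (SE 0.21, adjusted p = 4.96e-05). The 3 groups did not overlap for Kcnab2. Kcne3, which turns Kcnq1 into a constantly open epithelial channel, measured 0.332, 0.621 and 0.451 CPM in sham, 1.52, 2.17 and 2.58 CPM in injured and 2.1, 2.72 and 3.45 CPM in VEGFR3iLECko libraries, and rose by 2.14 on the log2 scale (SE 0.35, adjusted p = 0.000673), as Kcnq1 did. Kcnab3, Kcne1l, Kcne2 and Kcne4 did not pass the test, at log2 fold changes of -0.23, -0.13, -0.50 and -0.45.

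Lists of related transport genes were counted for context. Of 12 partner subunits that the symbol rule misses, 8 were tested, 2 rose and 4 fell: Abcc9 and Lrrc55 were higher and Dpp6, Lrrc38, Amigo1 and Amigo2 lower. The sodium-potassium pump, which builds the potassium gradient that the channels use, had 8 of 12 tested genes lower and 1 higher. Its summed level was 4761 to 5071 CPM in sham, 2322 to 2597 CPM in injured and 2599 to 3171 CPM in VEGFR3iLECko irises. Among its genes, the regulator Fxyd5 rose from 27.0 ± 2.80 CPM (SD, n = 3) to 316 ± 6.68 CPM (3.55, adjusted p = 3.06e-08). Of 16 tested voltage-gated calcium channel genes 6 fell and 1 rose, and of 5 tested potassium cotransporters 1 rose (Slc12a2, 0.87, adjusted p = 0.00922). The 4 pacemaker (HCN) genes were not called, with adjusted p of 0.203 to 0.691.

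Some channel genes varied as much within a group as between groups. Kcnv2, the silent subunit of photoreceptors, measured 8.42, 0.904 and 2.82 CPM in sham, 0.607, 7.14 and 0.459 CPM in injured and 3.68, 0.623 and 3.4 CPM in VEGFR3iLECko libraries. Kcnj14, an inward rectifier, was at 7.09, 0.508 and 1.97 CPM, 0.85, 3.75 and 1.21 CPM and 4.03, 0.85 and 3.8 CPM in the same order. The 8 photoreceptor markers summed to 1012, 129 and 372 CPM in sham, 47.5, 681 and 34.7 CPM in injured and 663, 54.8 and 530 CPM in VEGFR3iLECko libraries. The highest library of each group by these markers was thus also the highest for Kcnv2 and Kcnj14. After injury these genes were not called, at -0.56 and -0.72 (adjusted p = 0.678 and 0.521). Without Injured replicate 2, Kcnv2 was called lower at -2.91 (adjusted p = 0.0471), while without Sham replicate 1 the values of Kcnv2 and Kcnj14 turned to 0.55 and 0.64. The photoreceptor markers themselves were not called between injured and sham irises. Their part in these values was not tested beyond a fit with their sum as a covariate.

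**Figure D4:**
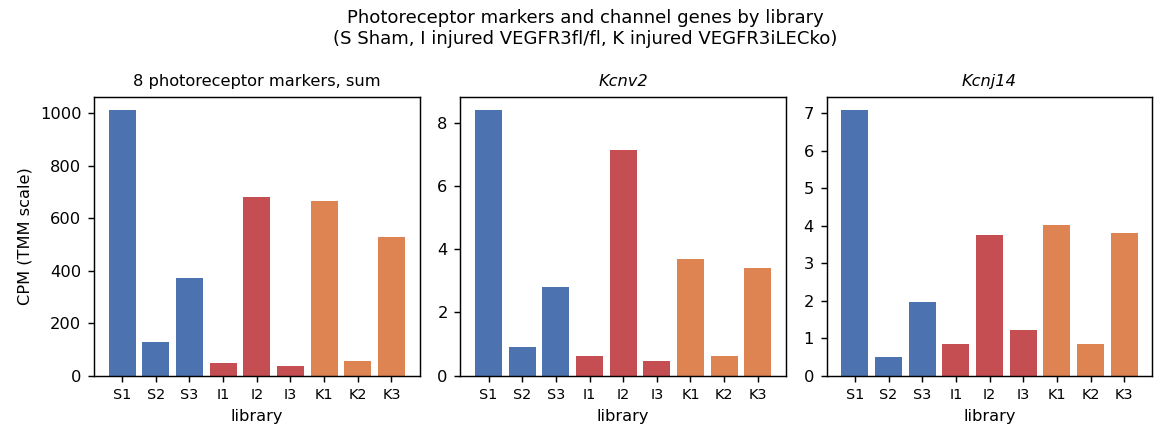
Summed CPM of 8 photoreceptor markers and the CPM of Kcnv2 and Kcnj14 (y axes from 0, on the TMM scale) in each of the 9 libraries, S1 to S3 for sham, I1 to I3 for injured VEGFR3fl/fl and K1 to K3 for injured VEGFR3iLECko. Sham replicate 1 and Injured replicate 2 are the tallest bars of their groups in all 3 panels.

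The second comparison set the injured libraries labelled VEGFR3iLECko, in which Flt4 was not lower, against the injured floxed libraries. Of the 66 channel genes, 1 was called higher (Kcnh1) and 0 lower in the libraries labelled VEGFR3iLECko, against 0.573% higher and 0.466% lower (1.04% either way) of all tested genes. At an unadjusted p under 0.05 there were 14 of the 66 channel genes by edgeR, against 24.5% of all tested genes. DESeq2 called 4 channel genes higher and 2 lower, against 2.29% higher and 1.88% lower (344 and 282) of the 15010 tested genes. Beside Kcnh1, its higher calls were Kcnq5, Kcnj3 and Kcnk1 (DESeq2 adjusted p = 0.00307, 0.0137 and 0.0217). Its lower calls were Kcnip3 and Kcnn4 (DESeq2 adjusted p = 0.0122 and 0.0278). Kcnh1, a voltage-gated channel of brain and of dividing cells, measured 30.2, 18.5 and 28.4 CPM in sham, 7.65, 9.72 and 7.87 CPM in injured and 17, 18.4 and 15.4 CPM in VEGFR3iLECko libraries. The VEGFR3iLECko libraries lay above all injured floxed libraries and under all sham libraries. The value was 1.01 on the log2 scale (SE 0.19, adjusted p = 0.0417). It was no longer called without Sham replicate 1 or 3 (adjusted p = 0.0704 and 0.0763), Injured replicate 1 or 3 (0.0777 and 0.0615) or VEGFR3iLECko replicates 1, 2 or 3 (0.0816, 0.153 and 0.076), at log2 fold changes of 0.95 to 1.07.

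Of the 13 other genes, 6 had higher and 7 lower estimates in VEGFR3iLECko libraries and edgeR's adjusted p was over 0.05. Higher values included those of Kcnq5 (1.11, SE 0.26, adjusted p = 0.0634), Kcnj3 (1.11, adjusted p = 0.0984), Kcnk1 (1.08, adjusted p = 0.112), Kcnj11 (0.71, adjusted p = 0.187) and Kcnj13 (0.46, adjusted p = 0.111). All 6 belong to the genes that fell after injury. Lower values were those of Kcnn4 (-0.99, adjusted p = 0.084), Kcnip3 (-0.66, adjusted p = 0.077), Kcnab2 (-0.58, adjusted p = 0.136), Kcnk6 (-0.49, adjusted p = 0.0903), Kcnk13 (-0.49, adjusted p = 0.148), Kcnk2 (-1.59, adjusted p = 0.181) and Kcnf1 (-1.45, adjusted p = 0.106). Both contrasts use the same injured libraries, so a high or low injured value moves them in opposite directions. Of the genes named, the groups overlapped for Kcnk1 and Kcnk2. Without Injured replicate 2, Kcnj3 passed the test at 1.5 (adjusted p = 0.0473) and Kcnip3 at -0.82 (adjusted p = 0.0407).

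The genes with the largest rises after injury were not called between the injured groups. Kcnj15 differed by 0.32 between them (SE 0.28, adjusted p = 0.504), Kcns1 by -0.96 (adjusted p = 0.228), Kcng2 by -0.29 (adjusted p = 0.536), Kcns2 by -0.82 (adjusted p = 0.397), Kcnk2 by -1.59 (adjusted p = 0.181), Kcna5 by 0.78 (adjusted p = 0.316) and Kcnj2 by 0.93 (adjusted p = 0.233), though the Kcnj2 libraries did not overlap. The related transport genes were not called between the injured groups either, with Cacnb2 (0.73, adjusted p = 0.0579) and Cacna2d2 (0.99, adjusted p = 0.0736) among the smallest adjusted p. Macrophage markers were called lower in 5 of 10 cases in the same contrast.

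**Figure D5:**
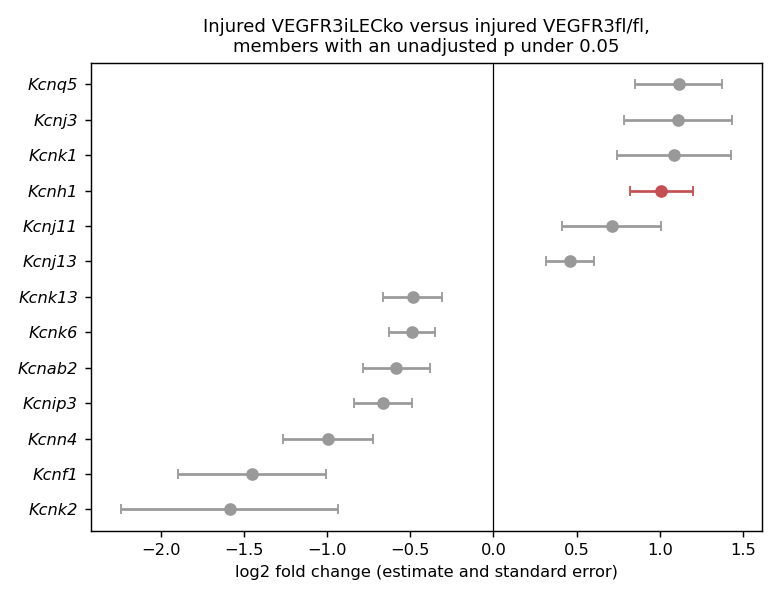
Log2 fold change of injured VEGFR3iLECko over injured VEGFR3fl/fl irises (x axis, point and standard error) for 13 of the 14 potassium channel genes with an unadjusted p under 0.05. Red marks Kcnh1, the 1 gene that edgeR called. The 6 genes right of 0 fell after injury.

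Set against sham, the VEGFR3iLECko libraries gave 17 channel genes higher and 24 lower, beside 19.7% higher and 15% lower (34.8% either way) of all tested genes. This contrast shares its sham libraries with the first. Of the genes called there, 15 were higher and 23 lower in both, 9 were called in the injured floxed irises alone (among them Kcnab1, Kcng3, Kcnh3, Kcnh7, Kcnj11, Kcnj8, Kcnk2 and Kcnmb1), and Kcna6, Kcnn3 and Kcns3 were called in the VEGFR3iLECko irises alone. Between the injured groups edgeR's adjusted p was 0.181 or more for these 12 genes. Kcnj15 rose by 7.78 on the log2 scale against sham in the VEGFR3iLECko libraries and by 7.46 in injured floxed irises. Kcnj13 fell by 3.38 in the former and fell by 3.84 in the latter.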

How the data were processed

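Irises were dissected from the eye, 3 were pooled per library, and single-end reads of TruSeq mRNA libraries were sequenced on a BGIseq500. The authors aligned reads to the mouse genome, and the submitters' processing notes name HISAT2 2.0.4, Bowtie2 2.2.5, DESeq2 1.4.5 and mm10. The counting program, the annotation and the use of strand are not given in the sources used here. The deposited values are estimated counts per gene, not normalized, and about 10% of genes in a library are not whole numbers, which were rounded to whole counts. A combined table of the same values and group averages was not used.

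All 9 libraries entered 1 edgeR 4.0.16 model (R 4.3.3) without covariates, using TMM factors of 0.900 to 1.09, filterByExpr by group (minimum count 10) and glmQLFTest, and p-values were adjusted over all 15010 tested genes. Totals per library were 16617199 to 18306363 counts, and intervals on counts cover counting error only. Standard errors were derived from the F statistic. Approximate TPM used the longest GENCODE M21 transcript of each gene, found for 96.2% of genes and all 90 channel genes, and gene positions are from the same annotation on GRCm38. Of the 66 tested channel genes, 26 share exon bases with another annotated gene, 4 of them with a protein-coding one. Kcna6, Kcnj3 and Kcnma1 share up to 2355, 1080 and 1016 bases with noncoding genes on the opposite strand. The scripts were tested on simulated data.

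Groups followed titles and descriptions. The genes, their classes, marker lists and tests were chosen with earlier results of these data known. A few results are not reported here. By rule, values in every library went to up to 6 genes per class with the largest called, non-overlapping change, to the highest gene of each class in sham, to genes called between the injured groups, and to a list fixed by name. Kcnq1ot1, on that list, was not analysed here. Further genes were given such values outside the rule, with the results known. Among them were Kcna1, Kcna2, Kcnb2, Kcnd1, Kcnd3, Kcnh2, Kcnh3, Kcnq1, Kcnv2 and Kcnj14. Alternatives were RLE, upper quartile and library-size scaling, other filters, DESeq2 1.42.0, limma-voom (limma 3.58.1), only the libraries compared, other fold thresholds, a replicate block, a Y-linked covariate, each library left out, and a photoreceptor covariate chosen after seeing the data.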

Additional observations from a re-analysis of the deposited data

How the results depend on the processing

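In the comparison of injured with sham irises, between 16 and 20 channel genes were called higher and between 24 and 31 lower when each library was left out in turn. Of the 47 genes called in all libraries, 41 to 46 were called again in those fits, 44 under scaling by library size alone and 37 at more than 2-fold. The TPM filter left 51 channel genes, 16 higher and 22 lower. Direction reversed only for genes that were not called. Under library-size scaling Kcnh6 stood at -0.085. With the photoreceptor covariate Kcnj14 and Kcnv2 stood at 0.62 and 0.46. Without Sham replicate 1, Kcnj14, Kcnv2 and Kcnj4 stood at 0.64, 0.55 and -0.07. Kcnj9 stood at -0.20 without Sham replicate 3, and Kcnj4 and Kcnj9 stood at -0.65 and -0.66 without Injured replicate 2. Between the injured groups, Kcnj15 stood at -0.058 with the Y-linked covariate. Over the fits that left out 1 library, Kcnj14 ranged from -1.62 to 0.64, Kcnj4 from -0.65 to 0.61, Kcnj9 from -0.66 to 0.93 and Kcnv2 from -2.91 to 0.55. The causes were not tested.

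Between the injured groups the single call, Kcnh1, was lost (0 higher) under library-size scaling, limma-voom, the Y-linked covariate, the photoreceptor covariate and the fit of only the libraries compared, at adjusted p of 0.0537 to 0.313. DESeq2 gave 4 higher and 2 lower, with 344 and 282 of all genes against 86 and 70 by edgeR. Leaving out 1 library gave 0 to 2 higher and 0 to 1 lower. Against sham, VEGFR3iLECko libraries had 17 channel genes higher and 24 lower, 11 and 16 with the Y-linked covariate, under which all genes went from 2964 higher and 2259 lower to 2466 and 1667. Replicate numbers did not pair the libraries, since same-numbered libraries deviated together with correlations of -0.39 to 0.13. With the replicate block, 18 genes were higher and 29 lower after injury, Kcng4 was called lower (-1.54, adjusted p = 0.0385), 0 were higher between the injured groups, and 15 were higher and 25 lower against sham.

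With 3 libraries per group and pooled irises, small changes of low genes were below what these counts can show. All sham libraries were floxed without Cre, so genotype in uninjured irises was not measured.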
